A study of Homo sapiens with 24 samples.

Results

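The 57 genes described here encode proteins that take a cell from G2 through chromosome segregation to division. They were chosen by name, for their known roles, with earlier results of these data known. All 57 were found among the 26346 genes counted in each of 24 RNA sequencing libraries. Every member had reads in every library, with 20 counts the lowest, and all 57 passed the filter on low counts in each of 4 model fits. The libraries came from 3 human cell lines. VCaP and LNCaP were grown from prostate cancer metastases. SW13 came from an adrenal cortical carcinoma and lacks most of its own BRG1, the ATPase of the BAF chromatin remodeler. Polyadenylated RNA was read in 12 groups of 2 libraries. VCaP cells, which carry the TMPRSS2-ERG fusion, received shRNA against ERG (shERG), shRNA against ARID1A (shARID1A), a BAF subunit gene, or a control shRNA (shCt). LNCaP cells received V5-tagged ERG, ETV1 or an empty vector (Empty). SW13 cells received ERG or Empty together with V5-BRG1, its ATPase mutant V5-BRG1 K785R (BRG1-K785R, or K785R for short), or GFP, giving 6 groups. Lentivirus was left on the cells for 48 h, and they were then kept under drug for 8 days with puromycin in VCaP, 4 days with blasticidin in LNCaP, and 2 days with both drugs in SW13. The duplicates of a group were separate infections and cultures. Which hairpins were used is not given in the sources used here.

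In G2, the transcription factors MYBL2 and FOXM1 switch on a set of genes whose products build up toward mitosis. CDK1 with cyclin B starts mitosis, polo-like and Aurora kinases build the spindle, the kinetochore joins chromosomes to microtubules, and the checkpoint holds the anaphase-promoting complex until every chromosome is attached. The same genes are held down in resting cells by the DREAM complex, which acts through promoter elements called the CHR (cell cycle genes homology region) and, in the same promoters, CCAAT boxes bound by NF-Y help activation. Their summed level in a culture is widely used as a measure of proliferation. In bulk RNA, fewer cycling cells and less RNA per cycling cell cannot be told apart.

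Promoter sequences show the elements these genes share, since the members were chosen by function and not by sequence. RefSeq promoter entries of GRCh38.p14, from 250 bases before to 50 bases after the gene start, matched 48 members. Either CHR form, TTTGAA or TTCGAA on either strand, was present in 35 of these 48 windows (72.9%), against 16.6% of 27305 promoters. TTTGAA alone was in 33 (68.8%), against 15.4% of all promoters, and TTCGAA was in 3 (6.25%), against 1.45%. CCAAT, also on either strand, was in 33 (68.8%), against 35.7%, and at least 2 copies were in 20 (41.7%), against 11.3%. Both a CHR and a CCAAT box were found in 26 of 48 (54.2%), against 6.58% of all promoters. The ETS core CCGGAAGT was in 4 (8.33%), against 4.44%. The E2F strings TTTCCCGC and TTTGGCGC were each in 2 (4.17%), against 1.66% and 0.659%. A match in these windows is a description and not a binding site. The 5 promoters of members that recur below are printed to show the arrangement, each as the 150 bases before the gene start on the gene's strand. Capitals mark a CHR or a CCAAT box, and a CCAAT box on the other strand reads ATTGG.
CCNB2 (chr15:59104996-59105145, plus strand): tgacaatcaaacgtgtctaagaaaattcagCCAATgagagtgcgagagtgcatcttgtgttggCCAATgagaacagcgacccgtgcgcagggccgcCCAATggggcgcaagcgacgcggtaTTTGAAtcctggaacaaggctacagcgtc
PLK1 (chr16:23678739-23678888, plus strand): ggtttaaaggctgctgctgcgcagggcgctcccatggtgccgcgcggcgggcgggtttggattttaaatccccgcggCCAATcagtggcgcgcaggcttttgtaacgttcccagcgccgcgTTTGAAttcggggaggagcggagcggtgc
MKI67 (chr10:128126424-128126573, minus strand): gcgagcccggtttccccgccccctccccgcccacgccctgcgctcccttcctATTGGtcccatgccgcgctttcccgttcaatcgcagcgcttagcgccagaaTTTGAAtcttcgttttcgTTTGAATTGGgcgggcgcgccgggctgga
HMMR (chr5:163460482-163460631, plus strand): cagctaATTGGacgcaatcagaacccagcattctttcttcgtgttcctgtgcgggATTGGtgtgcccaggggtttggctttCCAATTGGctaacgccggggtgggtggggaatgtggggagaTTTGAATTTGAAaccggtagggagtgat
CDC25B (chr20:3786801-3786950, plus strand): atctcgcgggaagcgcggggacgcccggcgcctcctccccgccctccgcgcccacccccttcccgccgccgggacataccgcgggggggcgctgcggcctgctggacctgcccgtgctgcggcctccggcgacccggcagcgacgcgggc
The CCNB2 window holds 3 CCAAT boxes upstream of 1 CHR, and PLK1 holds 1 of each. MKI67 holds 2 CHR and 2 CCAAT boxes, and HMMR 2 CHR and 4 CCAAT boxes, some of them overlapping. CDC25B holds none of them in this stretch.

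Library totals were 19754265 to 41996681 counts. Levels below are CPM, each count scaled to the library total, and levels of different genes are compared only as the deposited RPKM, which also divides by gene length. Log2 changes, with an approximate standard error (SE), and adjusted p values come from edgeR's quasi-likelihood test, which is two-sided, with Benjamini-Hochberg adjustment over all genes tested. A gene is called at an adjusted p under 0.05. The targeted genes followed the labels. ERG had 80.99 and 87.92 CPM with shERG, against 330.4 and 354.4 CPM with shCt. ARID1A had 71.92 and 75.27 CPM with shARID1A, against 251.2 and 249.8 CPM with shCt, and ERG was 242.3 and 238.3 CPM with shARID1A. In LNCaP, ERG reached 995.7 and 957.8 CPM against 0.2771 and 0.6191 CPM with Empty, and ETV1 reached 3749 and 3626 CPM against 567.8 and 590.5 CPM. SMARCA4, the BRG1 gene, was at 1417 to 2264 CPM in the 8 SW13 libraries given BRG1 or BRG1-K785R and at 25.54 to 35.38 CPM in the 4 GFP libraries. Among those 8 it was lowest with K785R and ERG, at 1417 and 1430 CPM, against 2180 and 2039 CPM with K785R and Empty. With BRG1 it was 1959 and 2264 CPM with ERG and 2150 and 2201 CPM with Empty. ERG in SW13 was at 1859 and 2148 CPM beside BRG1, 1609 and 1585 CPM beside K785R, and 1474 and 1587 CPM beside GFP. ARID1A, not targeted in SW13, had 144.4 and 155.2 CPM with BRG1 and ERG, against 238.2 and 231.8 CPM with BRG1 and Empty. Beside K785R it had 214.7 and 253.2 CPM with ERG, against 330.0 and 318.2 CPM with Empty. Beside GFP it had 307.7 and 320.2 CPM with ERG, against 236.6 and 221.1 CPM with Empty. In VCaP, SMARCA4 was 244.4 and 246.2 CPM with shERG and 121.9 and 125.0 CPM with shARID1A, against 154.0 and 153.3 CPM with shCt. The part of these unequal levels in the results was not tested. The prostate markers KLK3, FOXA1 and HOXB13 were high in VCaP and LNCaP. The adrenal markers HSD3B2 and MC2R were at 0 in both SW13 GFP Empty libraries, and STAR and CYP11A1 were under 0.1 CPM there. The 7 adrenal markers summed to 14.34 and 11.72 CPM in SW13 GFP Empty cells, against 46.46 and 44.46 CPM in LNCaP Empty cells, so they did not mark SW13.

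Together the 57 genes made up 1543.9 and 1813.9 CPM of the shERG libraries and 605.8 and 563.3 CPM of the shARID1A libraries, against 3122.0 and 3062.4 CPM with shCt. In LNCaP they summed to 1905.7 and 2845.4 CPM with ERG and 2999.5 and 2515.9 CPM with ETV1, against 2885.1 and 3228.6 CPM with Empty. The SW13 libraries lay higher, with 5157.6 and 4794.8 CPM for BRG1 with ERG the lowest pair and 6444.3 to 7568.9 CPM in the other 10 libraries. The lowest library was a VCaP shARID1A library and the highest an SW13 GFP Empty library.

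**Figure D1:**
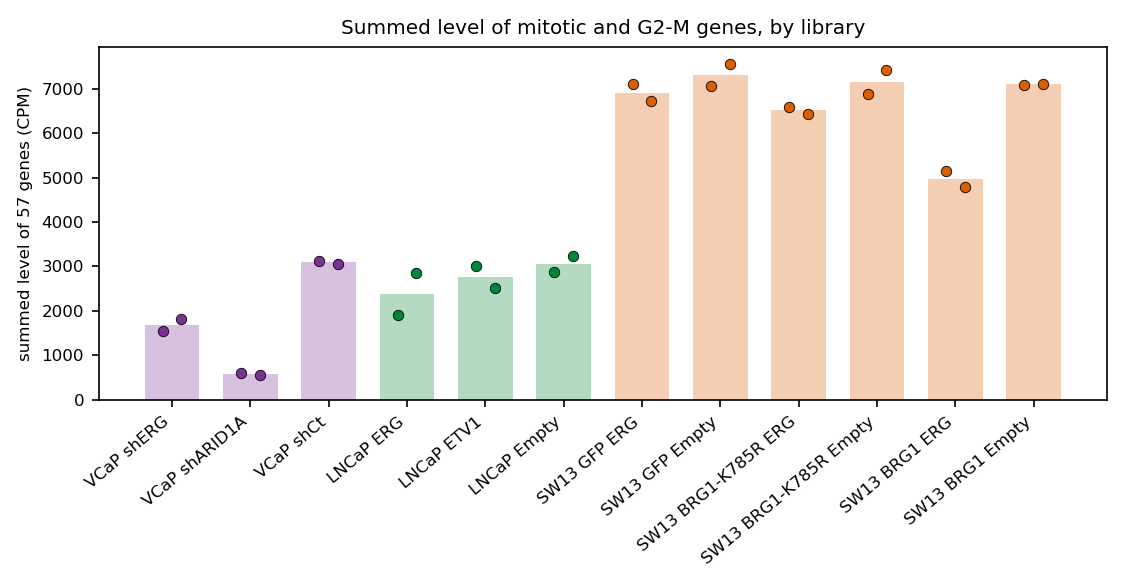
Summed level of the 57 mitotic and G2-M genes (CPM, linear axis from 0) in each library (points) with the mean of the 2 libraries (bars), by group. The VCaP shARID1A libraries, at 605.8 and 563.3 CPM, lie lowest, and the BRG1 with ERG libraries, at 5157.6 and 4794.8 CPM, are the lowest pair in SW13.

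By RPKM, TOP2A, the topoisomerase that untangles sister chromatids, ranked first in VCaP shCt cells with 59.72 RPKM and in SW13 GFP Empty cells with 99.22 RPKM. In LNCaP Empty cells CCNB1, cyclin B1, ranked first with 53.05 RPKM and TOP2A stood at 38.34 RPKM. The member median was 10.28 RPKM in shCt, 13.12 RPKM in LNCaP Empty and 30.92 RPKM in GFP Empty. In shARID1A cells it was 1.779 RPKM, and the condensin subunit SMC4, at 12.7 RPKM, stood above TOP2A, at 9.054 RPKM. KIF18A at 2.182 RPKM in shCt, KIF15 at 1.737 RPKM in LNCaP Empty and the CDC25C phosphatase at 5.904 RPKM in GFP Empty were the lowest members.

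ERG knockdown in VCaP lowered 56 of the 57 genes and raised none. In this comparison 66.7% of the 16791 genes tested were called, and 37.4% were called lower. The members' median log2 change was -0.99, against -0.05 for all genes, and 26 members fell more than 2-fold, against 18.2% of all genes that changed by that much in either direction. In 54 of 57 members the shERG and shCt libraries did not overlap, against 83.5% of all genes. The 4 fibroblast markers, mostly LUM and COL1A1, summed to 79.24 and 80.68 CPM with shERG and 9.881 and 12.8 CPM with shARID1A, against 28.69 and 29.09 CPM with shCt, and their part in the results was not tested. The second shERG library was higher than the first for 55 members, by a median of 0.25 on the log2 scale.

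Both transcription factors were among the members that fell most with shERG. MYBL2, which with the MuvB core starts the G2 program, had 13.46 and 17.65 CPM with shERG, against 79.8 and 77.39 CPM with shCt (log2 change -2.53 ± 0.089, adjusted p = 2.83e-16). FOXM1, which takes over that program toward mitosis, had 30.55 and 40.46 CPM with shERG, against 117.3 and 120.2 CPM with shCt (-1.93 ± 0.083, adjusted p = 7.99e-15). Neither shERG library came near a shCt library for these genes. MKI67, which encodes the Ki-67 protein that coats mitotic chromosomes, had 48.03 and 51.88 CPM with shERG, against 188.6 and 183.5 CPM with shCt (-2.08 ± 0.059, adjusted p = 6.19e-18), a 4.23-fold difference.

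The kinases and cyclins fell by unequal amounts. CDK1, the kinase that drives mitotic entry, had 36.2 and 43.59 CPM with shERG, against 86.46 and 83.97 CPM with shCt (log2 change -1.28). Its partner CCNB1 had 36.07 and 43.9 CPM with shERG, against 51.55 and 48.41 CPM with shCt (-0.51 ± 0.079, adjusted p = 7.13e-06). The groups were separate for both genes, with a narrower gap for CCNB1. Polo-like kinase PLK1 had 15.28 and 18.93 CPM with shERG, against 22.15 and 22.87 CPM with shCt (-0.59 ± 0.098, adjusted p = 2.01e-05). Aurora kinase AURKA fell to 29.26 and 32.21 CPM with shERG, against 54.13 and 53.8 CPM with shCt (-1.0 ± 0.068). MELK, a kinase expressed in dividing cells, fell further, to 7.687 and 9.021 CPM with shERG, against 27.83 and 25.81 CPM with shCt (-1.87 ± 0.103). For each of these kinases every shERG library was below every shCt library.

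All 4 members of the chromosomal passenger complex, which corrects faulty attachments at the centromere, fell with shERG. Its kinase AURKB had 4.573 and 5.614 CPM, against 16.2 and 17.09 CPM with shCt (-1.90 ± 0.148, adjusted p = 2.06e-10), and its survivin subunit BIRC5 had 29.81 and 35.97 CPM, against 62.9 and 62.94 CPM (-1.12 ± 0.075). The smallest fall in the complex was that of borealin, CDCA8 (-0.94). All 9 kinetochore and checkpoint genes fell, between SPC25, an outer kinetochore subunit with 4.152 and 3.91 CPM with shERG against 13.7 and 12.54 CPM with shCt (-1.88), and the kinetochore motor CENPE (-0.60). In the Ndc80 complex, NUF2 changed by -0.70 and NDC80 by -0.83, and the NUF2 libraries overlapped between groups.

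Among 8 kinesins, 7 fell with shERG. KIF15, which helps keep the spindle bipolar, had 10.12 and 11.61 CPM with shERG, against 27.24 and 26.5 CPM with shCt (-1.49 ± 0.097). KIF18A, which aligns chromosomes at the spindle equator, had 5.676 and 7.975 CPM with shERG, against 6.967 and 8.144 CPM with shCt, and was the 1 member not called (-0.34 ± 0.164, adjusted p = 0.073). Its libraries overlapped between groups. The 6 spindle assembly genes fell by 0.47 (HMMR, a microtubule-binding protein) to 1.28 (NUSAP1, a spindle-associated protein) on the log2 scale. The cytokinesis genes ANLN, ECT2 and RACGAP1, which form the division furrow, fell by 1.26, 1.14 and 0.94.

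In the chromosome structure group all 8 fell with shERG, but not evenly. SMC4, the condensin ATPase, had 188.1 and 206.4 CPM with shERG, against 215.0 and 214.9 CPM with shCt (-0.31 ± 0.051, adjusted p = 1.56e-05), the smallest called change of all members. TOP2A had 144.4 and 177.9 CPM with shERG, against 354.9 and 332.2 CPM with shCt (-1.28 ± 0.072). The condensin I subunit NCAPH fell by 1.55. Of the anaphase genes, CDCA5 (sororin, which protects sister cohesion) had 46.9 and 53.5 CPM with shERG, against 145.6 and 137.5 CPM with shCt (-1.68 ± 0.067, adjusted p = 2.39e-15). Securin, PTTG1, had 5.027 and 7.433 CPM with shERG, against 7.436 and 7.38 CPM with shCt (-0.45 ± 0.164, adjusted p = 0.0211), with overlapping libraries. It was not called by DESeq2 (-0.40), with library totals as the scale (-0.26) or with scaling within bins of transcript GC (-0.36). Nor was it called without the first shERG library (-0.12), the first shCt library (-0.43) or the second shCt library (-0.46). Near-identical PTTG1 copies make its reads uncertain.

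**Figure D2:**
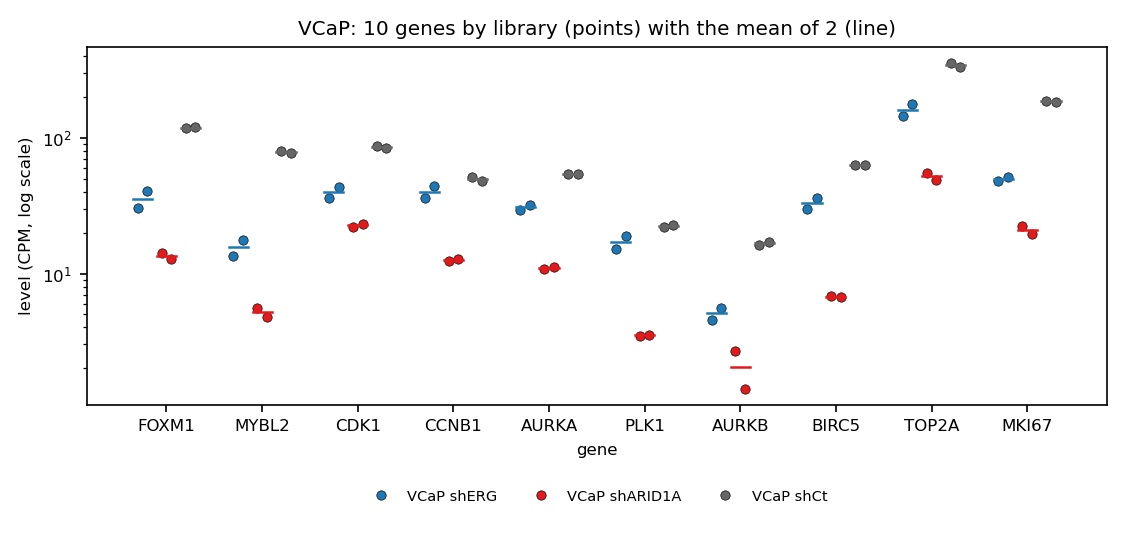
Levels (CPM, log axis) of 10 genes in the VCaP libraries, with shERG, shARID1A and shCt from left to right for each gene; points are libraries and lines are means of 2. Within each gene the shARID1A points lie lowest, the shERG points between, and the shCt points highest.

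ARID1A knockdown in VCaP lowered all 57 genes, with a median log2 change of -2.76 (all genes 0.01). Here 66.1% of all genes were called and 33.2% were called lower. All but 1 of the members fell more than 2-fold (56 of 57), against 19.3% of all genes beyond that size. The groups did not overlap for any of the 57, against 82.9% of all genes. Both VCaP comparisons use the same shCt libraries.

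MYBL2 fell most, to 5.586 and 4.809 CPM with shARID1A, against 79.8 and 77.39 CPM with shCt (log2 change -3.97 ± 0.108, adjusted p = 3.46e-18), a 15.7-fold difference. FOXM1 had 14.24 and 12.75 CPM with shARID1A, against 117.3 and 120.2 CPM with shCt (-3.20 ± 0.096). MKI67 had 22.41 and 19.54 CPM, against 188.6 and 183.5 CPM (-3.21 ± 0.066, adjusted p = 9.86e-20). These libraries lay far below both control libraries in each case. TOP2A had 55.48 and 48.69 CPM with shARID1A, against 354.9 and 332.2 CPM with shCt (-2.78 ± 0.080). PLK1 had 3.491 and 3.521 CPM with shARID1A, against 22.15 and 22.87 CPM with shCt (-2.75 ± 0.128). CCNB1 had 12.39 and 12.8 CPM, against 51.55 and 48.41 CPM (-2.06 ± 0.092), and cyclin A, CCNA2, fell by 2.81. The smallest falls belonged to CDC25B, the phosphatase that first activates CDK1, with 32.71 and 33.36 CPM with shARID1A against 53.58 and 64.58 CPM with shCt (-0.91 ± 0.076, adjusted p = 6.23e-10), and to ECT2, the exchange factor that activates RhoA at the furrow (-1.35). SPC25 (-3.52), the phosphatase-targeting subunit CDCA2 (-3.43), NCAPH (-3.40) and BUB1B, a checkpoint kinase (-3.25), stood near MYBL2 at the other end.

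Direct comparison of the knockdowns showed 56 of 57 genes lower with shARID1A than with shERG, in a comparison where 73.0% of all genes were called, 36.2% lower and 36.8% higher (median of members -1.68, of all genes -0.01). The groups did not overlap for any of the 57, against 87.0% of all genes. Both sides of this comparison also enter the comparisons above. PTTG1 had 0.9776 and 0.8588 CPM with shARID1A, against 5.027 and 7.433 CPM with shERG (-2.62 ± 0.239), the largest difference, while PLK1 differed by -2.16 ± 0.132 and BIRC5 by -2.17. NDC80 and DLGAP5, which stabilises spindle microtubules, both differed by -2.38. MKI67 (-1.13), FOXM1 (-1.27) and MYBL2 (-1.45) differed less. CDC25B, with 32.71 and 33.36 CPM with shARID1A against 36.97 and 40.22 CPM with shERG, was the 1 member not called (-0.11 ± 0.078, adjusted p = 0.225), although its libraries did not overlap. ECT2 (-0.20 ± 0.072, adjusted p = 0.0146) was not called when genes were scaled within bins of transcript GC (-0.07).

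Other cell cycle lists moved in VCaP as well, and not all in 1 direction. Of 28 S-phase genes, 28 were lower with shERG (median -1.54) and 27 with shARID1A (-2.54). RRM2, a subunit of the enzyme that makes deoxynucleotides, had 24.91 and 31.09 CPM with shERG and 8.17 and 7.3 CPM with shARID1A, against 112.8 and 110.2 CPM with shCt. Among 17 DREAM and E2F regulators, 11 fell and 2 rose with shERG, and 13 fell and 2 rose with shARID1A (medians -0.38 and -0.67). E2F1, the activator of S-phase genes, had 10.8 and 14.91 CPM with shERG and 16.48 and 15.85 CPM with shARID1A, against 109.8 and 102.1 CPM with shCt. RBL2, the pocket protein p130 of the DREAM complex, had 197.1 and 214.1 CPM with shARID1A, against 102.5 and 100.7 CPM with shCt (0.95 ± 0.050). With shERG it was 94.48 and 92.1 CPM and was called lower (-0.31).

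Of 31 further kinetochore and centromere genes, 28 fell with shERG and 29 with shARID1A, with none higher (medians -0.97 and -1.99). CENPM, a subunit of the inner kinetochore, had 2.789 and 3.097 CPM with shERG, against 29.94 and 27.07 CPM with shCt (-3.46 ± 0.122, adjusted p = 2.68e-16). Of 34 further G2-M and spindle genes, 30 fell with shERG and 32 with shARID1A, and 1 rose in each (medians -0.89 and -2.26). The genes that rose were DEPDC1, with 57.7 and 63.76 CPM with shERG against 43.84 and 42.6 CPM with shCt, and the kinesin KIF22, with 323.4 and 339.6 CPM with shARID1A against 240.6 and 248.8 CPM with shCt. APC/C genes, whose product degrades mitotic proteins and is regulated largely at the protein level, had 3 higher and 8 lower of 16 with shERG (median -0.14), a share of calls near the 66.7% of all genes. ANAPC4, one of its subunits, had 14.37 and 13.98 CPM with shERG, against 5.753 and 5.506 CPM with shCt (1.15 ± 0.118). With shARID1A 1 of the 16 was higher and 9 were lower (-0.28), where 66.1% of all genes were called. Of 13 cohesin and further condensin genes, 6 were higher and 5 lower with shERG (median 0.03), against 66.7% of all genes called. With shARID1A 2 of the 13 were higher and 8 lower (-0.36).

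In LNCaP, ERG lowered 8 of 57 genes and raised none, while 29.7% of all genes were called and 14.3% were called lower. The members' share, at 8 of 57, is close to that share of lower calls. The change was below 0 for all 57 members, with a median of -0.37 (all genes 0.00), and the groups did not overlap for 32, against 67.8% of all genes. The 8 were CDK1 (-0.50), TTK (a checkpoint kinase, -0.61), CENPA (the centromeric histone H3, -0.67), NUF2 (-0.58), KIF15 (-0.55), KIF18A (-0.64), ECT2 (-0.42) and TOP2A (-0.49). CENPA had 7.307 and 11.76 CPM with ERG, against 14.56 and 15.62 CPM with Empty (adjusted p = 0.0226), and KIF18A had 7.746 and 10.49 CPM, against 13.63 and 14.79 CPM (adjusted p = 0.00776). In both, the second ERG library lay nearer to the Empty libraries than the first.

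The same split ran through the set. The first ERG library was the lowest of the 6 LNCaP libraries for 57 of 57 members, against 16.7% of all genes, and the second Empty library was the highest for 48. The second ERG library exceeded the first for all 57, by a median of 0.58 on the log2 scale (range 0.33 to 0.82, all genes 0.00). MKI67 had 74.21 and 113.7 CPM with ERG, against 108.3 and 119.1 CPM with Empty (-0.27 ± 0.164, adjusted p = 0.246), and FOXM1 had 62.8 and 95.44 CPM, against 88.05 and 97.36 CPM (-0.23 ± 0.156, adjusted p = 0.311). For each of them the second ERG library fell within the range of the Empty libraries. The calls followed the libraries: 55 members were called without the second ERG library, where 22.0% of all genes were called. Without the first ERG library 1 member was called (19.7% of all genes), without the first Empty library 3 (15%) and without the second Empty library 0 (16.7%). The 4 fibroblast markers on the list, of which COL1A1 gave most reads, summed to 34.08 and 36.29 CPM with ERG, against 92.64 and 21.17 CPM with Empty, and their part in the result was not tested. Of 28 S-phase genes 5 were called lower (median -0.21), where 14.3% of all genes were called lower.

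**Figure D3:**
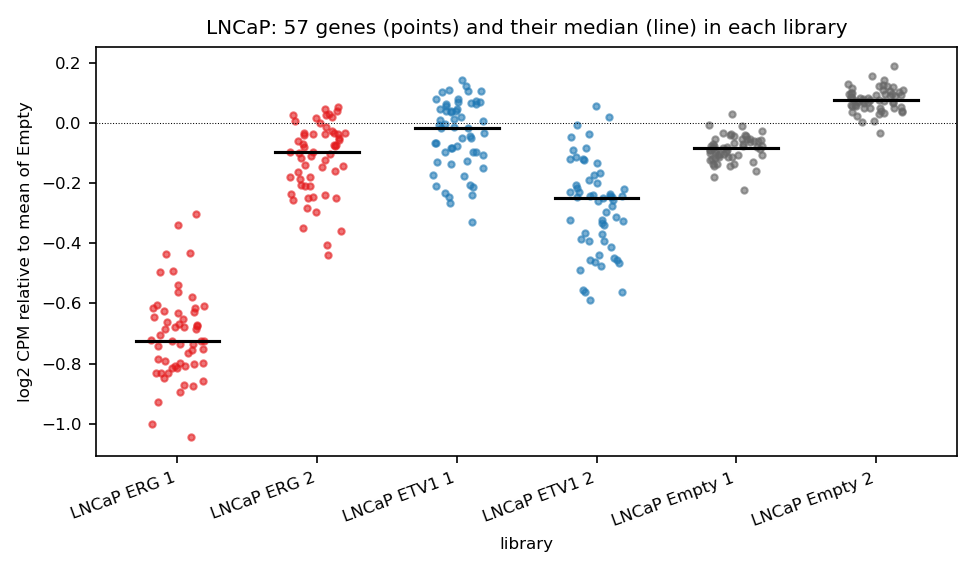
Log2 ratio of each of the 57 genes (points, CPM) to its mean in the 2 LNCaP Empty libraries, by library, with the median as a line. The first ERG library lies below all other libraries for 57 of 57 genes, the second overlaps them, and the ETV1 libraries differ from each other.

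With ETV1, 0 members were called against Empty by edgeR's quasi-likelihood test and 0 by DESeq2, 2 had an unadjusted p under 0.05 (26.1% of all genes were called), and the median was -0.09. The largest change was that of CDK1, with 106.3 and 84.97 CPM with ETV1 against 118.3 and 137.4 CPM with Empty (-0.38, adjusted p = 0.086). CDC25B had 44.24 and 41.66 CPM with ETV1, against 37.24 and 42.84 CPM with Empty (0.14). Spearman's rho between the log2 change and transcript GC was 0.73 over the members, which are not independent replicates, and 0.30 over all genes. For ERG against Empty these values were 0.44 and 0.17. The part of GC content in these results was not tested beyond scaling within GC bins. The second ETV1 library was below the first for all 57 members, by a median of 0.24 on the log2 scale. Between ERG and ETV1, edgeR's quasi-likelihood test and DESeq2 again called 0 members, 6 had an unadjusted p under 0.05 (14.4% of all genes were called, 6.5% lower and 7.87% higher), and the median was -0.29. NUF2 differed most, with 8.495 and 12.1 CPM with ERG against 14.12 and 13.66 CPM with ETV1 (-0.47). Without the second ERG library 46 members were called, where 9.31% of all genes were called. These 3 LNCaP comparisons share libraries.

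In SW13, ERG was given beside GFP, BRG1 or BRG1-K785R. With GFP, ERG lowered 27 genes and raised 2 of 57 (26.0% of all genes were called, 13.5% lower and 12.6% higher), with a median of -0.21. ECT2 changed most, with 192.8 and 181.3 CPM in GFP ERG cells, against 282.3 and 300.8 CPM in GFP Empty cells (-0.69 ± 0.077, adjusted p = 6.09e-08), and HMMR (-0.54), SPC25 (-0.52) and BIRC5 (-0.51) followed. CDK1 had 91.54 and 80.67 CPM with ERG, against 99.64 and 118.4 CPM with Empty (-0.40 ± 0.090, adjusted p = 0.0014), and CCNB1 changed by -0.41. For ECT2 and CDK1 both ERG libraries were below both Empty libraries. MKI67 rose, with 755.7 and 728.9 CPM with ERG, against 617.9 and 615.4 CPM with Empty (0.21 ± 0.068, adjusted p = 0.0194), and so did CDC25B, with 106.8 and 100.2 CPM, against 87.97 and 85.53 CPM (0.20 ± 0.071, adjusted p = 0.0341). The CDC25B call was lost with scaling within bins of transcript GC (0.13) or of gene length (0.18), with no filter (0.19), and with any 1 of the 4 libraries left out (0.16 to 0.24). FOXM1 (0.04), MYBL2 (-0.13), TOP2A (-0.12) and PLK1 (-0.21) were not called.

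The size of these changes went with gene length. Across the 57 genes, which are not independent replicates, Spearman's rho between the log2 change and the deposited gene length was 0.73, against 0.22 over all genes. The 19 shortest members had a median of -0.33 and the 19 longest -0.05. With scaling within 10 bins of gene length, 27 members were still called lower and 0 higher, and MKI67 stood at 0.04 and was not called. The count of 29 called members was 6 without the second GFP Empty library (10.0% of all genes were then called), 18 without the first GFP ERG library (12.6%) and 13 without the second (14.2%). RNA45S5, the ribosomal RNA precursor, was at 4588 and 3469 CPM in the GFP ERG libraries, against 2943 and 12540 CPM in the GFP Empty libraries, with the second GFP Empty library the highest of the 4, and its part in the result was not tested. The part of length in the result was not tested otherwise.

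Beside wild-type BRG1, ERG lowered 46 of 57 genes and raised none, in a comparison where 45.4% of all genes were called and 22.8% were called lower. The groups did not overlap for 51 members, against 71.9% of all genes. The median was -0.43 (all genes 0.00), and the summed level was 5157.6 and 4794.8 CPM with BRG1 and ERG, against 7097.3 and 7116.2 CPM with BRG1 and Empty. Sums of the BRG1 Empty libraries were close to each other, and both ERG libraries were lower. CDCA3, a protein that promotes mitotic entry, fell most, to 19.86 and 18.08 CPM with ERG, against 37.5 and 41.47 CPM with Empty (-1.01 ± 0.094, adjusted p = 1.71e-10). Separase, ESPL1, which cuts cohesin at anaphase, had 49.08 and 51.56 CPM with ERG, against 99.71 and 103.6 CPM with Empty (-0.97 ± 0.075, adjusted p = 2.79e-12). MKI67 had 386.1 and 404.0 CPM with ERG, against 757.2 and 758.6 CPM with Empty (-0.89 ± 0.069, adjusted p = 2.31e-12). In all 3 genes the groups were far apart and the duplicates close.

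Both transcription factors fell beside BRG1, FOXM1 to 89.36 and 85.09 CPM with ERG, against 141.5 and 145.7 CPM with Empty (-0.67 ± 0.074), and MYBL2 to 77.45 and 72.36 CPM, against 110.5 and 104.2 CPM (-0.47 ± 0.079). PLK1 had 71.38 and 54.99 CPM with ERG, against 111.9 and 106.6 CPM with Empty (-0.75 ± 0.091). AURKB changed by -0.81, ECT2 by -0.76, KIF23 (a centralspindlin motor) by -0.66 and BUB1B by -0.69. The 4 passenger complex genes and the 3 cytokinesis genes all fell (medians -0.55 and -0.68). AURKA (-0.38), BIRC5 (-0.39), TOP2A (-0.34), CDK1 (-0.34) and CCNB1 (-0.24) changed less, and the calls of CDK1 and CCNB1 were lost without the second BRG1 ERG library (-0.20 and -0.06) or the second BRG1 Empty library (-0.27 and -0.26), and that of CCNB1 also without the first BRG1 Empty library (-0.22). The 11 uncalled members included NDC80, with 28.21 and 27.85 CPM with ERG against 29.08 and 28.49 CPM with Empty (0.01 ± 0.093), HMMR (0.01), SMC2 (0.05) and CCNB2, cyclin B2 (-0.03). Spearman's rho with transcript GC was -0.52 over the members and -0.23 over all genes. The 4 fibroblast markers summed to 11.15 and 12.41 CPM with BRG1 and ERG, against 59.25 and 60.8 CPM with BRG1 and Empty, nearly all of it COL1A1, and their part in the result was not tested.

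Other lists were read in the same comparison, where 45.4% of all genes were called, 22.8% lower and 22.6% higher. Of 28 S-phase genes, 25 were lower and none higher (median -0.49). Of 34 further G2-M genes 30 were lower (-0.44), and of 31 kinetochore genes 14 were lower and 1 higher (-0.21). KIF18B, a kinesin that trims astral microtubules, had 46.36 and 46.8 CPM with ERG, against 113.8 and 126.9 CPM with Empty (-1.32 ± 0.089, adjusted p = 9.03e-14). UHRF1, which keeps DNA methylation through replication, fell by 1.05 and E2F2 by 1.11. RB1, the retinoblastoma protein gene, rose to 74.49 and 77.17 CPM with ERG, against 58.94 and 56.5 CPM with Empty (0.44 ± 0.081). APC/C genes had 3 higher and 5 lower of 16 (median -0.03), and cohesin and condensin genes 2 higher and 5 lower of 13 (-0.04). In both lists the share of calls was not far from that of all genes.

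**Figure D4:**
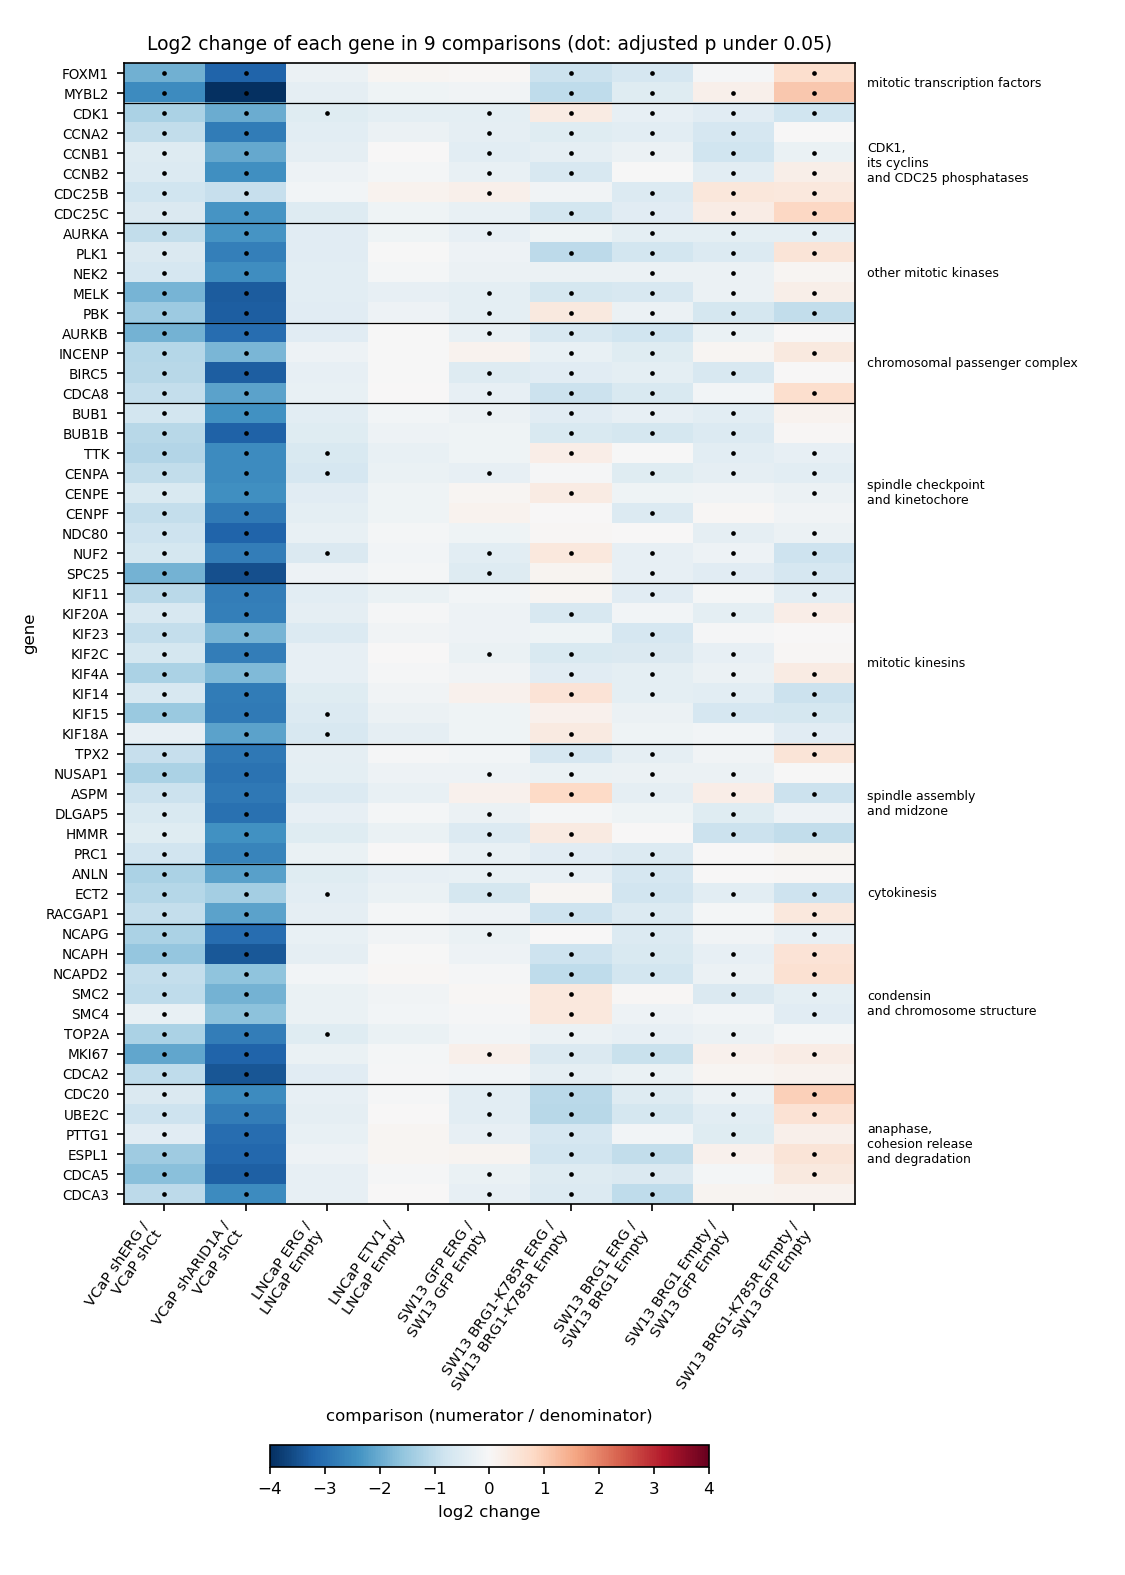
Log2 change of each of the 57 genes (rows, by role) in 9 comparisons (columns, first-named group over second); blue is lower, red is higher, and a dot marks an adjusted p under 0.05. The shARID1A column is the darkest, 56 genes carry a dot with shERG, 8 with LNCaP ERG, and the K785R columns hold both colours.

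Beside the ATPase mutant, ERG lowered 33 genes and raised 11 of 57 (56.2% of all genes were called, 30.9% lower and 25.3% higher; median -0.35). UBE2C, the ubiquitin-conjugating enzyme of the APC/C, had 24.86 and 22.65 CPM with K785R and ERG, against 46.02 and 44.54 CPM with K785R and Empty (-1.12 ± 0.099, adjusted p = 3.21e-11). CDC20, the APC/C activator, had 100.4 and 97.81 CPM with ERG, against 187.7 and 180.0 CPM with Empty (-1.08), PLK1 changed by -1.06, MYBL2 by -1.02 and the condensin subunit NCAPD2 by -1.01. ASPM, which holds spindle poles together, rose to 168.3 and 166.6 CPM with ERG, against 75.01 and 92.97 CPM with Empty (0.81 ± 0.084, adjusted p = 8.92e-10), and KIF14, a kinesin of cytokinesis, rose by 0.55. NUF2 and SMC2 rose by 0.43 and CDK1 by 0.34. The groups did not overlap for the 5 largest falls or for ASPM.

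The direction of a member went with its GC content. Spearman's rho between the log2 change and transcript GC was -0.80 over the members and -0.12 over all genes. The 19 members lowest in GC had a median of 0.34 and the 19 highest -0.63, while all genes in the same GC ranges had medians of 0.20 and -0.14. With scaling within 10 bins of GC, 36 members were lower and 5 higher, and CDK1, NUF2, CENPE and KIF18A were among those no longer called higher. The K785R Empty libraries also held the most reads of RNA45S5 in SW13, at 19770 and 26400 CPM, against 2943 to 12540 CPM in the other 10 SW13 libraries. The part of GC content and of these reads in the result was not tested otherwise.

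The same K785R Empty libraries were also compared with GFP Empty, so these comparisons share them. Of 57 members 20 were higher and 20 lower (58.7% of all genes were called, 32.3% higher and 26.4% lower; median 0.04). MYBL2 had 179.0 and 161.2 CPM with K785R, against 81.96 and 89.8 CPM with GFP (1.07), CDC20 changed by 0.95, CDC25C by 0.82 and FOXM1 by 0.68. PBK, a mitotic kinase, had 39.14 and 48.61 CPM with K785R, against 89.89 and 95.6 CPM with GFP (-1.0), and HMMR (-0.98), ASPM (-0.87) and KIF14 (-0.86) were also lower. Within each of these genes the libraries of the groups did not overlap. Spearman's rho with GC was 0.80 over the members and 0.17 over all genes, and with scaling within GC bins 19 members were higher and 15 lower.

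**Figure D5:**
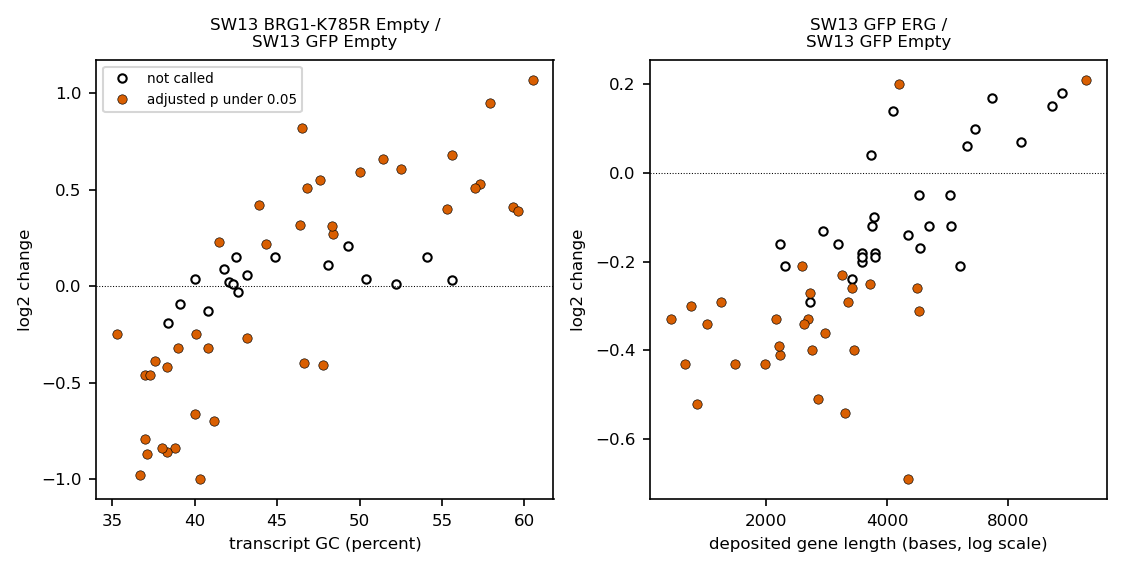
Left, log2 change of the 57 genes with K785R Empty over GFP Empty against transcript GC (percent). Right, log2 change with GFP ERG over GFP Empty against deposited gene length (bases, log axis). Filled points have an adjusted p under 0.05; the change rises with GC on the left (rho 0.80) and with length on the right (rho 0.73).

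BRG1 without ERG lowered 34 members and raised 6 relative to GFP (62.4% of all genes were called, 30.2% lower and 32.2% higher; median -0.23). HMMR had 73.46 and 72.73 CPM with BRG1, against 113.8 and 127.0 CPM with GFP (-0.85), and CCNB1 had 71.43 and 70.16 CPM, against 106.6 and 117.1 CPM (-0.79). All 5 kinases of the group holding AURKA, PLK1 and NEK2 fell, but the libraries of NEK2 and MELK overlapped between groups. NEK2 had 39.38 and 34.84 CPM with BRG1, against 38.62 and 40.2 CPM with GFP. MELK had 42.92 and 46.09 CPM with BRG1, against 45.92 and 48.62 CPM with GFP. CDC25B rose to 128.5 and 132.5 CPM with BRG1, against 87.97 and 85.53 CPM with GFP (0.46), and CDC25C (0.29) and ASPM (0.28) were also higher. MYBL2 (0.19), ESPL1 (0.17) and MKI67 (0.17) were called higher but turned slightly negative with scaling within bins of GC (MYBL2 and ESPL1) or of gene length (MKI67 and ESPL1). The 4 fibroblast markers summed to 59.25 and 60.8 CPM with BRG1, against 4.963 and 6.337 CPM with K785R and 9.621 and 9.598 CPM with GFP, all without ERG, and their part in the results was not tested. BRG1 Empty against K785R Empty gave 11 higher and 30 lower (66.7% of all genes were called, 32.6% higher and 34.1% lower). CDC20 (-1.18) and PLK1 (-1.09) led on one side and ASPM (1.15) on the other. Spearman's rho with transcript GC was -0.70 over the members and -0.01 over all genes. The part of GC content in this result was not tested beyond scaling within GC bins. The members' median of -0.19 in this comparison was 0.02 with library totals as the scale, which moved the median of all genes to 0.22 from 0.01.

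Among cells given ERG, BRG1 went with lower levels than either comparator. BRG1 ERG cells had 49 members lower and none higher than GFP ERG cells (58.9% of all genes were called, 28.5% lower and 30.4% higher; median -0.43). PLK1 had 71.38 and 54.99 CPM with BRG1 and ERG, against 135.2 and 128.2 CPM with GFP and ERG (-1.09), and BUB1B (-1.06), KIF14 (-0.98) and MKI67 (-0.94) stood next. Against K785R ERG cells, 44 were lower and none higher (47.0% of all genes were called, 22.6% lower; median -0.38), led again by PLK1 (-0.78) and BUB1B (-0.70). K785R ERG cells differed less from GFP ERG cells, with 16 members lower and 2 higher (40.5% of all genes were called; median -0.08). MKI67 had 531.5 and 568.7 CPM with K785R and ERG, against 755.7 and 728.9 CPM with GFP and ERG (-0.49), while CDC25C (0.37) and CDC20 (0.30) were higher. That count of 18 was 6 without the first GFP ERG library (28.1% of all genes) and 9 without the second K785R ERG library (32.1%). These 3 comparisons use no K785R Empty library.

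The ERG effects were also compared with each other. The effect beside BRG1 minus that beside GFP was called for 23 members, 22 lower and 1 higher, where 37.8% of all genes were called (18.7% lower). MKI67 differed most (-1.11), having fallen beside BRG1 and risen beside GFP, where the rise was not called with scaling within bins of gene length. The 1 higher member was HMMR (0.55). The count was 15 without the first GFP Empty library (33.3% of all genes) or the first GFP ERG library (27.9%). The effect beside BRG1 minus that beside K785R was called for 33 members, 10 higher and 23 lower (46.2% of all genes), with ASPM at -1.16 and CCNB2 at 0.60. The effect beside K785R minus that beside GFP was called for 33, 12 higher and 21 lower (39.8% of all genes), with HMMR at 0.89 and NCAPD2 at -0.96. Spearman's rho with GC over the members was -0.42, 0.62 and -0.82 in these 3 differences, in the order given. With gene length it was -0.48, -0.38 and 0.04 over the members, against -0.20, -0.03 and -0.17 over all genes.

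Between the lines' own controls, SW13 GFP Empty cells had 50 members higher and 1 lower than LNCaP Empty cells. Of all genes 83.1% were called, 38.7% higher and 44.5% lower, and the members' median was 1.07. KIF4A, a chromosome-bound kinesin, had 150.8 and 160.9 CPM in SW13, against 23.53 and 26.95 CPM in LNCaP (2.62), and MKI67 (2.44), KIF11 (the motor that separates spindle poles, 2.40) and ECT2 (2.39) followed. CDK1 was the 1 lower member, with 99.64 and 118.4 CPM in SW13 against 118.3 and 137.4 CPM in LNCaP (-0.23). Its libraries overlapped, and it was not called by DESeq2 (-0.19) or with RLE scaling (-0.19). The call was also lost with only the groups compared (-0.21) and with scaling within bins of gene length (-0.17). The same held without the second LNCaP Empty library (-0.11) or the first SW13 GFP Empty library (-0.089). VCaP shCt cells had 20 members higher and 33 lower than LNCaP Empty cells. Here 81.4% of all genes were called, 39.3% higher and 42.1% lower, and the members' median was -0.19. HMMR had 13.54 and 14.53 CPM in VCaP, against 61.75 and 74.58 CPM in LNCaP (-2.21), PTTG1 differed by -2.17, and KIF15 (1.75), CDCA5 (1.62) and ESPL1 (1.40) were higher in VCaP. Spearman's rho between the log2 change and gene length over the members was 0.45 for SW13 against LNCaP and 0.50 for VCaP against LNCaP. Over all genes it was 0.01 and 0.13. The 19 shortest members had a median of 0.90 in SW13 against LNCaP and the 19 longest 1.68. In VCaP against LNCaP these medians were -0.53 and 0.35. The part of length in these results was not tested otherwise. Cell line, vector and days of selection differ together here and cannot be told apart.

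The changes were also read by promoter class. With shERG the median log2 change was -0.96 in the 26 members with both elements, -1.12 in 9 with a CHR alone, -0.67 in 7 with CCAAT alone and -0.74 in 6 with neither, and the ranges overlapped. With shARID1A the medians were -2.52, -2.84, -2.81 and -2.61 in the same order. For BRG1 ERG over BRG1 Empty they were -0.46, -0.33, -0.25 and -0.51. CDC25B, whose window printed above holds neither element, fell least with shARID1A, while MYBL2, also without either, fell most.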

How the data were processed

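Polyadenylated RNA was read as 75 base single-end sequence, per the labels' protocols. The deposited tables give raw read counts per gene, RPKM values and a gene length. Alignment was to hg19 with STAR 2.3.1, per the submitters' processing notes. How reads were assigned to genes, and whether by strand, is not given in the sources used here, so overlapping genes may share reads. The deposited RPKM values equalled counts divided by gene length and library total. The SW13 control insert is GFP in the titles, while protocol text of other samples names luciferase.

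Counts were tested with edgeR 4.0.16 (R 4.3.3, limma 3.58.1): TMM scaling, filterByExpr by group, 1 fit per line over all its groups and 1 over the 3 control groups, and quasi-likelihood F tests adjusted over all genes. The tests were also run on simulated counts with few changed genes, raised or lowered at random. That run cannot show how scaling or false calls behave where most genes were called. Approximate SE is the log2 change divided by the root of F. Genes tested were 16791 in VCaP, 16993 in LNCaP, 17018 in SW13 and 17718 between controls, with 3, 3, 6 and 3 residual degrees of freedom. CPM used library totals, so it differs slightly from the scale of the log2 changes. The lowest member count was 20, and with 2 libraries a group the spread between libraries limits precision.

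The members and the other gene lists were chosen with earlier results of these data known. Named were 10 fixed genes (MKI67, TOP2A, FOXM1, MYBL2, CCNB1, CDK1, PLK1, AURKA, AURKB and BIRC5), the largest and smallest change of each role group among members at 5 CPM or more, and members called against the majority. Not every gene named by that rule is printed for every comparison. In the other lists, the most significant genes in each direction were named for both VCaP knockdowns and for ERG beside BRG1, and further genes, such as the leading members, were named after their values were seen.

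Alternatives were RLE scaling, library totals, no filter, DESeq2 1.42.0, only the groups compared, a replicate block and each library left out. Scaling within 10 bins of transcript GC or gene length, and an SW13 fit without the BRG1-K785R Empty libraries, were added after seeing the data. Promoters came from RefSeq (GRCh38.p14), where 9 members had no entry. No coordinate was moved between builds. Tables and plots were made in Python 3.11.15 (pandas 2.3.3; plots with matplotlib 3.10.9; arrays with numpy 2.4.6).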

Additional observations from a re-analysis of the deposited data

Results flagged for a closer look

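The effect of ERG in SW13 differed between its 3 partners, by a test of the difference itself in edgeR's quasi-likelihood fit. Beside BRG1 as against GFP it differed for 23 of 57 members, near the share over all genes (37.8%), with MKI67 at -1.11 and HMMR at 0.55 on the log2 scale. By direction, 22 of the 23 were lower, where 18.7% of all genes were called lower. Beside BRG1 as against BRG1-K785R it differed for 33 members, where 46.2% of all genes were called, with ASPM at -1.16 and CCNB2 at 0.60. Beside BRG1-K785R as against GFP it differed for 33 members, where 39.8% of all genes were called, with NCAPD2 at -0.96 and HMMR at 0.89. The last 2 differences use the BRG1-K785R Empty libraries, whose log2 changes over GFP Empty went with transcript GC across the members (Spearman's rho 0.80). Without those libraries in the fit, the first difference was called for 24 members, where 38.3% of all genes were called.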

How the results depend on the processing

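With 1 library of 2 left out, the lone one is assumed to vary like the other groups. Members called with shERG were then 53 to 57, with shARID1A 57 throughout, and with ERG beside BRG1 38 to 46. LNCaP ERG against Empty ranged from 0 to 55 (8 with all libraries), ERG against ETV1 from 0 to 46 (0), SW13 GFP ERG from 6 to 34 (29), K785R ERG against GFP ERG from 6 to 17 (18), and the BRG1 minus GFP difference from 15 to 29 (23). LNCaP ERG against Empty gave 17 with no filter, 5 with only the groups compared and 5 with scaling within GC bins. ETV1 against Empty gave 1 with no filter and 5 with only the groups compared, and ERG against ETV1 gave 1 with no filter and 1 with GC bins. The cause was not tested. In BRG1 Empty against GFP Empty, MYBL2 (-0.0087) and ESPL1 (-0.026) turned negative with GC bins, and MKI67 (-0.089) and ESPL1 (-0.0021) with length bins. The members' median for BRG1 Empty against K785R Empty was 0.02 with library totals. With a replicate block, LNCaP ERG gave 6 calls, and no count moved by over 1.5 times. The duplicates were separate infections. Within LNCaP most members were higher in the second library for ERG and Empty and lower in it for ETV1. A batch shared by replicate number was not tested otherwise. For the other gene results, each is 1 named gene called in 1 comparison, read under 1 setting. Under the settings that leave out no library, 3189 kept direction and call, and 102 lost the call. With a library left out, a larger share lost the call.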
